A study of Mus musculus with 6 samples.

Results

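The 7 genes of the NMDA receptor subunit family were followed through RNA sequencing of lumbar dorsal root ganglia from wild-type mice and from mice labelled as NMDA receptor knockouts. The members were taken by gene identifier, as all 7 subunit genes among the 36793 genes of the deposited table. No measured value was used to pick among subunit genes, but earlier results of these data were known when the members were chosen. For each gene that table gives an expected count (the number of reads that the program RSEM assigned to the gene), TPM (a transcript level corrected for transcript length and library depth) and the length that RSEM used. The RSEM length of a gene is the mean length of its transcripts, weighted by their estimated abundance, so it moves when the estimated isoform mix moves.

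The study has 3 wild-type mice, numbered 1 to 3, and 3 knockout mice, numbered 4 to 6. Total RNA came from L3 and L4 ganglia, and the protocol calls the groups GluN1+ and GluN1-. By its title, the study deleted Grin1 in Schwann cells, the glia that wrap peripheral axons. The promoter that drives the deletion, the exons removed, and the strain, sex, age and litters do not appear in the labels used here, nor does any other treatment.

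NMDA receptors are cation channels gated by glutamate together with glycine or D-serine. Each channel holds GluN1, encoded by Grin1, with GluN2 subunits (Grin2a to Grin2d), which bind glutamate, or GluN3 subunits (Grin3a and Grin3b), which bind glycine. In sensory ganglia the receptors are best known from the neurons, whose central terminals carry them into the spinal cord. The label gives Schwann cells as the cell type, but the RNA was from whole ganglion. All 8 sensory neuron markers were detected, with a summed level of 6665 to 8782 TPM in wild type and 7640 to 9326 TPM in knockout. The 8 Schwann cell markers summed to 4996 to 5851 TPM in wild type and to 6529 to 6754 TPM in knockout, without overlap. The 5 satellite glia markers (780 to 956 TPM in wild type, 1000 to 1036 in knockout) and the 5 endothelial markers (46.7 to 52.0 and 64.9 to 70.6 TPM) were also separate. Of 3 motor neuron markers Chat and Mnx1 stayed below 1 TPM in every library, and Slc5a7 was at 0.79 to 1.61 TPM. The 5 markers of central glia summed to 9.30 to 17.4 TPM in wild type and 9.16 to 10.9 TPM in knockout. Among them Mog and Opalin stayed below 1 TPM in every library. Aqp4 was at 5.41 to 8.69 TPM, Slc1a2 at 1.45 to 2.02 and Mobp at 0.76 to 6.48, highest in wild-type library 1. Of 6 dorsal horn markers Gad1, Gad2, Slc32a1, Slc6a5 and Lmx1b stayed below 1 TPM, and Slc17a6, which sensory neurons also express, was at 138 to 161 TPM. A lower level in such a mixed sample can come from fewer cells of a type or from less RNA per cell, and these cannot be told apart.

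Knockout libraries 5 and 6 stood apart from all other pairs by their likeness. Over 10258 genes their mean chi-square per gene was 1.15 and 0 genes differed, against at least 13.2 and 3382 genes in the other 14 pairs. They were therefore counted as 1 sample, so that wild type had n = 3 and knockout n = 2, and each library is still given its own value. Library totals ranged from 28526704 to 36249163 expected counts.

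Grin1 (ENSMUSG00000026959) lies on the minus strand of chromosome 2 from 25291181 to 25319187 in GRCm38. RSEM quantified 14 Grin1 transcripts, and all 14 identifiers are in GENCODE vM21. Of these, 8 are protein-coding, between 3809 and 4276 bases long, and 6 are processed transcripts of 456 to 3437 bases. The coding forms differ by the first exon, by a pair of cassette exons and by the last exon. The cassette N1 adds 63 bases to the extracellular amino-terminal domain and is known to lower the receptor's sensitivity to protons. The cassette C1 adds 111 bases to the cytoplasmic tail and is known to hold an endoplasmic reticulum retention signal. The tail then ends in either C2 or C2'. The end with C2 is 356 bases longer than the end with C2', a larger step than either cassette or than the 92 bases between the longest and the shortest first exon.

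The cassettes and the starts of both tails are shown because they are the coding segments through which the Grin1 length can move. Sequences are from the GENCODE vM21 transcripts on GRCm38, minus strand, 5' to 3'. Capitals mark the cassette (N1, C1) or the first 30 bases of the tail exon (C2, C2'), and lower case marks 15 bases of the neighbouring exon. N1 is at chr2:25311343-25311405, C1 at chr2:25294438-25294548, the C2 start at chr2:25292455-25292484 and the C2' start at chr2:25292099-25292128. N1, C1 and the C2 start are each in 4 of the 8 coding transcripts. The C2' start begins the last exon in 4 of the 8. In the other 4, its bases lie inside the longer last exon that begins with C2.
N1: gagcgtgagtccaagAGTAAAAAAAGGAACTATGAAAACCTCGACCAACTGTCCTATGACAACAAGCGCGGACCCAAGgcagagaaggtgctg
C1: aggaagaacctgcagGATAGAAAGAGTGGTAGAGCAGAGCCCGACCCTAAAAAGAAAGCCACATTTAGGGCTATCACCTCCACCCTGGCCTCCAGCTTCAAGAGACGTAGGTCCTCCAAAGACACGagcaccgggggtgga
C2: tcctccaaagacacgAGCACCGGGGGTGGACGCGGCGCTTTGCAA
C2': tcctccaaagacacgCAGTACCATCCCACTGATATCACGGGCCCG

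**Figure D1:**
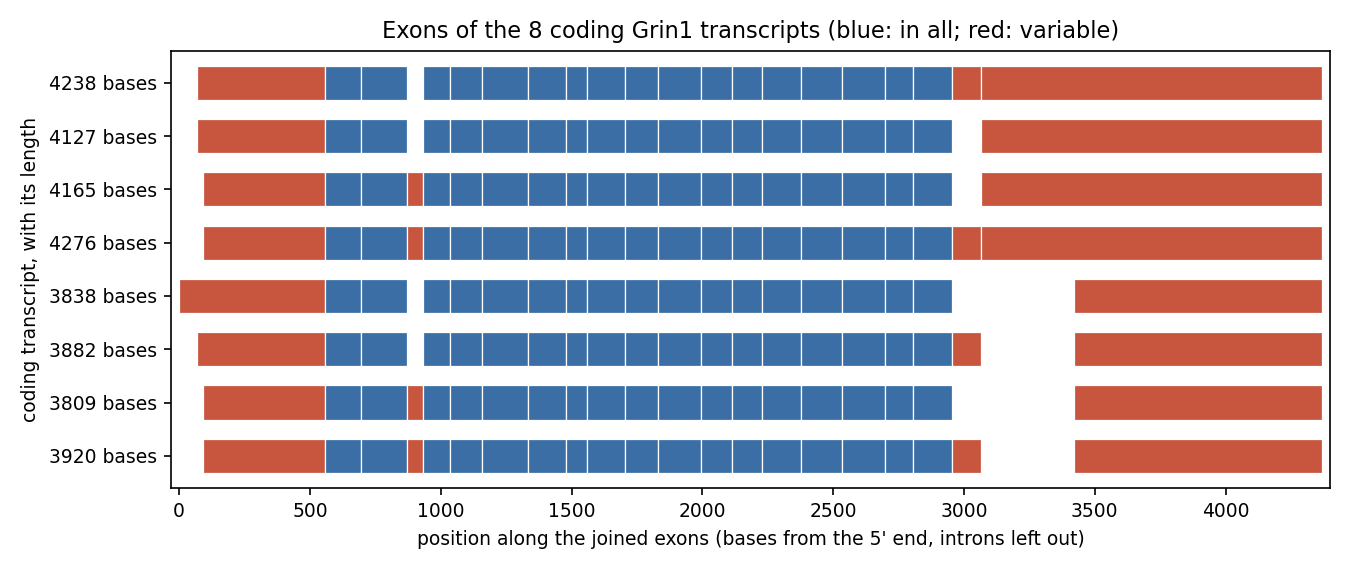
Exons of the 8 coding Grin1 transcripts, joined without introns and drawn to scale in bases from the 5' end (x axis), with 1 transcript per row and its length as the row label. Exons shared by all 8 transcripts are blue and variable ones red: the first exon, the N1 cassette of 63 bases, the C1 cassette of 111 bases and the last exon, whose C2 form is 356 bases longer.

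By TPM, Grin1 was the highest of the 7 genes in every library, and Grin3a was next. Grin1 made up 74.3 to 84.1% of the summed TPM of the 7 genes and Grin3a 12.8 to 21.3%. Grin2d followed, with 1.87 to 3.53%. The order by the median over the 5 samples was Grin1 at 46.2 TPM, Grin3a at 10.6, Grin2d at 1.68, Grin3b at 0.385, Grin2c at 0.29, Grin2a at 0.03 and Grin2b at 0.01. The ranges of Grin3b and Grin2c overlapped, as did those of Grin2a and Grin2b, while every other pair of neighbours in this order was separate over the 6 libraries. Among the GluN2 genes alone, Grin2d held 77.8 to 91.0% of the TPM, Grin2c 6.38 to 20.5%, and Grin2a and Grin2b at most 3.37 and 2.98%.

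**Figure D2:**
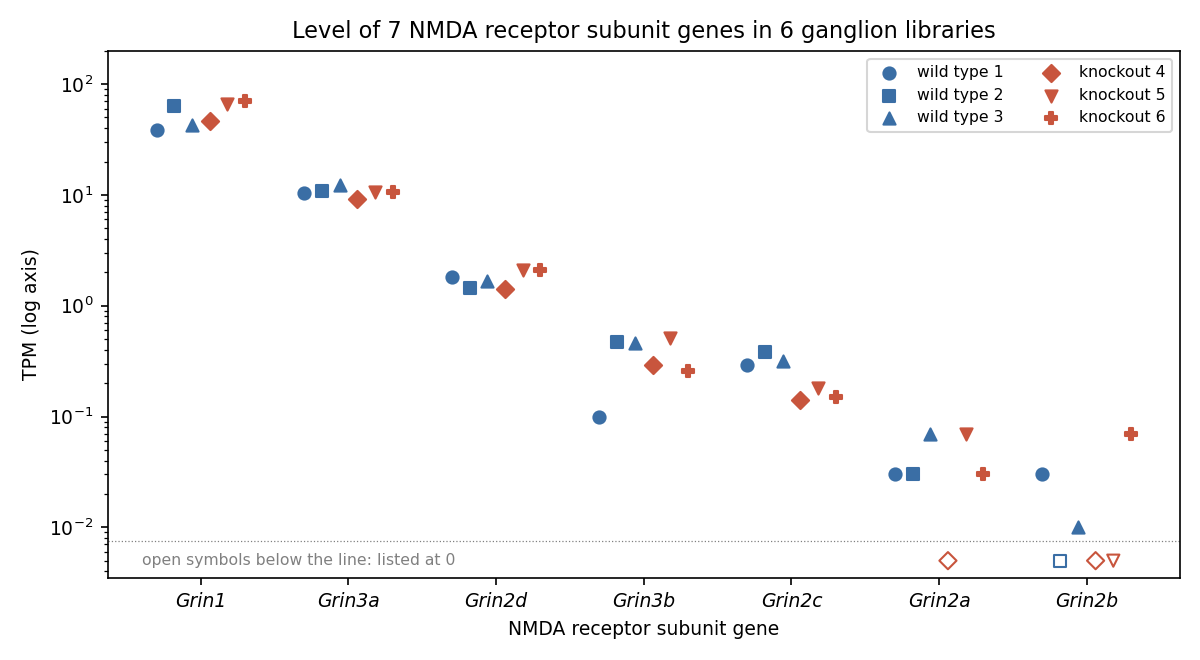
TPM of the 7 subunit genes (x axis, ordered by level) on a log axis (y), with 1 symbol per library, wild type in blue and knockout in red. Grin1 lies between 38.8 and 69.7 TPM, above Grin3a at 9.25 to 12.2 and Grin2d at 1.42 to 2.10, and open symbols below the grey line are values listed at 0.

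The design asks whether transcript levels in the ganglion differ after the deletion in Schwann cells. None of the 5 subunit genes that passed the filter on low counts passed the edgeR quasi-likelihood test at an adjusted p of 0.05, in a table where 16 of 16810 genes, 0.0952%, passed. At an unadjusted p under 0.05 there was 1 of the 5, Grin2c, where 9.16% of all genes reached it. The groups did not overlap in CPM (counts relative to library size, scaled by TMM) for 2 of the 5, Grin2c and Grin3a, where this held for 27.4% of all genes.

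Grin1, the obligatory subunit and the targeted gene, was at 38.8, 63.7 and 42.6 TPM in wild-type libraries 1 to 3. In knockout libraries 4, 5 and 6 it was at 46.2, 65.8 and 69.7 TPM. Wild-type library 2 and knockout libraries 5 and 6 were high, the other 3 were low, and the groups overlapped. The means were 48.4 ± 13.4 TPM (SD, n = 3) and 57.0 ± 15.3 TPM (SD, n = 2). The log2 fold change was 0.21 (standard error 0.26, edgeR quasi-likelihood adjusted p = 0.812), and it was -0.073 without knockout libraries 5 and 6 and 0.47 without wild-type library 2. The difference is smaller than the spread within either group. Grin1 was not measured by cell type, so its level in whole ganglion gives no check of a deletion in glia. Counts per gene also do not show single exons.

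The summed sensory neuron markers were also highest in wild-type library 2 and knockout libraries 5 and 6, at 8782, 9305 and 9326 TPM, against 6665, 7406 and 7640 TPM in wild-type libraries 1 and 3 and knockout library 4. Of the 8 markers, 6 were higher in each of these 3 libraries than in any of the others. The exceptions were Tubb3, at 3239 TPM in wild-type library 2 and 3349 in knockout library 4, and Isl1, which was lowest in these 3, at 103, 106 and 108 TPM against 112.5 to 121 TPM. The part of neuronal RNA in the Grin1 level was not tested. The genes most like Grin1 were those with the smallest root mean square difference in centred log2 CPM over the 5 samples. Among the closest were Nacc2, a transcriptional repressor (0.022), Gpr153, an orphan receptor (0.024), Fto, an RNA demethylase (0.030), and Cables2 (0.030). The median difference over 16809 genes was 0.36, and 470 genes lay within 0.1 of Grin1.

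The RSEM length of Grin1 was 3882, 3893 and 3890 bases in wild type, a spread of 5.52 bases (SD, n = 3). It was 3787 bases in knockout library 4, 3968 in library 5 and 3743 in library 6. The near-identical libraries 5 and 6 thus held the highest and the lowest length of all 6, and the 225 bases between them were the whole range of the data. Averaging that pair gave 3821 ± 48.5 bases (SD, n = 2) in knockout, against 3888 ± 5.52 in wild type. The log2 difference in length was -0.025 with a standard error of 0.0096 (limma adjusted p = 1.00, exact permutation p = 0.1, the smallest that 3 against 2 samples allow). With library 6 alone for the pair it was -0.047, and with library 5 alone -0.0045.

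In knockout libraries 4 and 6 the Grin1 length lay below 3809 bases, the shortest coding transcript in GENCODE vM21. If RSEM used the vM21 lengths, at least 0.664% of the estimated Grin1 transcripts in library 4 and 1.97% in library 6 were therefore the shorter non-coding forms. The same lengths allow a non-coding share of up to 58.3% in library 4 and 63.5% in library 6. The lengths of the other 4 libraries can be made from coding transcripts alone, but the upper limits there are 36.7 to 46.9%. A single mean length does not give the share of N1, C1, C2 or C2'. Whether RSEM used the vM21 lengths for Grin1 is not known. Of genes with 1 transcript in the table and found in both, 73.3% had the same length.

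TPM divides by this length, so the estimate of the isoform mix enters the level. Between knockout libraries 5 and 6 the share of all counts that fell on Grin1 differed by 0.007 on the log2 scale, while the effective length, which is the length less the positions where no read can start, differed by 0.086. The difference in Grin1 TPM, library 5 against library 6, was accordingly -5.53%, although both were at 116 CPM. With the effective length as an offset in edgeR, the Grin1 log2 fold change was 0.25 (adjusted p = 0.778).

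**Figure D3:**
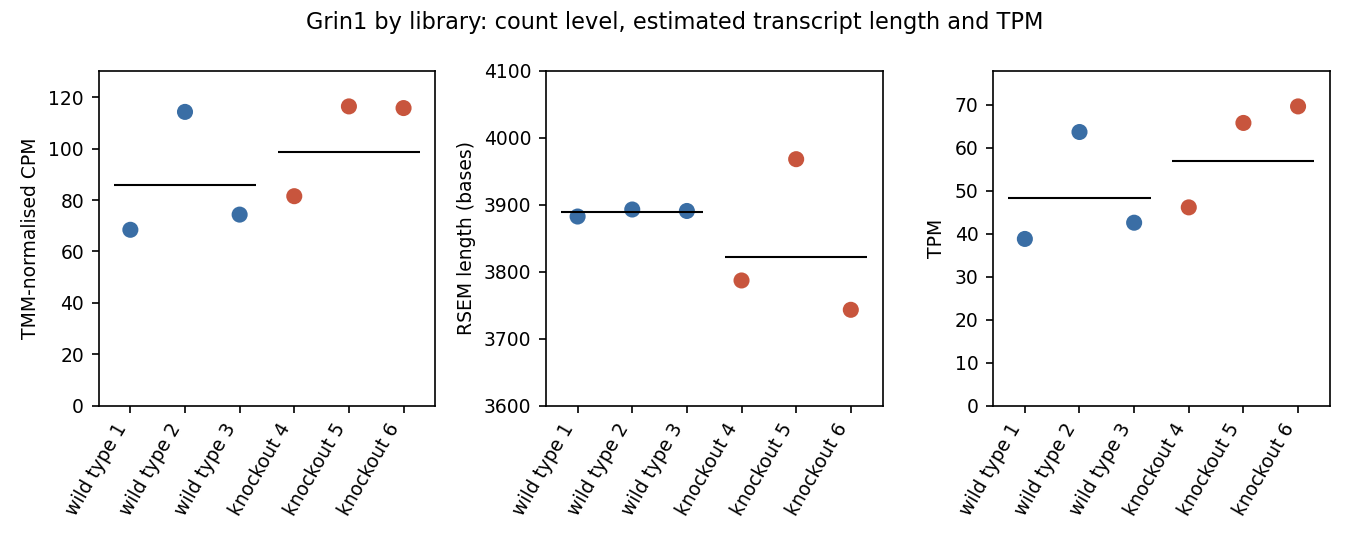
Grin1 in each library (x axis) as TMM-normalised CPM, RSEM length in bases (on an axis that does not start at 0) and TPM, with wild type in blue, knockout in red and black lines at the group means (knockout over 2 samples, libraries 5 and 6 averaged). CPM is 116 in both knockout libraries 5 and 6, while their lengths of 3968 and 3743 bases are the extremes of the 6.

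Grin1 is overlapped at its 3' part by Grin1os, a non-coding gene on the opposite strand of chromosome 2 (25291220 to 25298925), with which it shares 1307 exon bases. Neither gene had a whole expected count in any library. The 2 counts added up to a whole number in 6 of 6 libraries, at 2373, 3709 and 2271 in wild type and 2469, 4130 and 3764 in knockout. RSEM divides a read among the transcripts it is compatible with, and these sums show reads divided between the sense and the antisense gene. The library kit keeps strand, but the strand setting used for quantification is not given in the sources used here, and reads of the overlap cannot be assigned to a strand from these counts. Grin1os was at 1.95, 1.82 and 2.48 TPM in wild type and 1.85, 1.69 and 1.61 TPM in knockout, a log2 fold change of -0.24 (standard error 0.22, edgeR adjusted p = 0.740). With the counts of both genes summed, an alternative added after seeing the data, the log2 fold change of Grin1 was 0.20 (edgeR adjusted p = 0.818).

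Of the glutamate-binding subunits, Grin2d (chromosome 7, 45831883 to 45878378) was the main one. It had 109, 115 and 112 counts in wild-type libraries 1 to 3, and knockout libraries 4 to 6 had 106, 177 and 152. Knockout libraries 5 and 6 were high, also by CPM, at 5.08 and 4.76 against 3.26 to 3.82 in the other 4 libraries. The log2 fold change was 0.27 (standard error 0.20, edgeR adjusted p = 0.698). It was 0.12 with the effective length as offset, 0.07 on log2(TPM + 0.1) and 0.02 without knockout libraries 5 and 6.

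The estimated length entered the Grin2d level more than those of Grin1 and Grin3a. RSEM used 2 transcripts, of which 1 is in vM21, at 5431 bases. The length was 5431 bases in wild-type library 2 and knockout libraries 4 and 5, which is that transcript alone, and 3949, 5060 and 5075 bases in wild-type libraries 1 and 3 and knockout library 6. Wild-type library 1 had the lowest Grin2d level of the 6 by CPM, 3.26, and the highest of the wild-type libraries by TPM, 1.82. The log2 difference in length between the groups was 0.16 with a standard error of 0.16 (limma adjusted p = 1.00, exact permutation p = 0.7). The 5' part of Grin2d overlaps Kdelr1, a receptor for endoplasmic reticulum proteins on the opposite strand, without shared exon bases and with a log2 fold change of 0.10, and the counts of both genes were whole.

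Grin2c (chromosome 11, 115249169 to 115267243), the GluN2 subunit best known from cerebellar granule cells, had the largest log2 fold change of the members tested. It was at 0.29, 0.38 and 0.32 TPM in wild type, from 19, 24 and 18 counts. In knockout it was at 0.14, 0.18 and 0.15 TPM, from 8, 12 and 9.07 counts. Every knockout library lay below every wild-type library. The means were 0.33 ± 0.046 TPM (SD, n = 3) and 0.153 ± 0.018 TPM (SD, n = 2), and the log2 fold change was -1.11 (standard error 0.35). It did not pass over all genes (edgeR quasi-likelihood adjusted p = 0.437, and 0.0165 before adjustment). Its sign held under all alternatives run, from -1.23 without knockout libraries 5 and 6 to -0.21 on log2(TPM + 1), and its lowest adjusted p was 0.135, with the 6 libraries counted separately. The length was 4279 bases in all 6 libraries, which is the shorter of its 2 transcripts, so the estimated isoform mix was the same throughout. With 8 to 24 counts per library, that estimate rests on few reads.

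Grin2a and Grin2b, the main GluN2 subunits of the forebrain, were at the limit of detection and were removed by the filter. Grin2a (chromosome 16, 9567898 to 9995560) had 2, 2 and 4 counts in wild-type libraries 1 to 3, against 0, 5 and 2 in the knockout libraries. Grin2b (chromosome 6, 135713233 to 136173511) had 3, 0 and 1 counts in wild-type libraries 1 to 3, against 0, 0 and 5. A count of 0 allows up to 3 counts, which is 0.0828 to 0.105 CPM at these depths, and such limits cover counting error only. A difference between the groups was not detectable for either gene at this depth. Their lengths carry no isoform information where the count is 0: Grin2b was listed at 3304.6 bases in all 3 such libraries.

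Of the glycine-binding subunits, Grin3a (chromosome 4, 49661611 to 49845744) was at 10.5, 10.8 and 12.2 TPM in wild type. In knockout it was at 9.25, 10.5 and 10.6 TPM. Its counts were whole in every library, between 910 and 1184, and no gene with shared exon bases was found in the table. The means were 11.2 ± 0.925 TPM (SD, n = 3) and 9.91 ± 0.93 TPM (SD, n = 2). The groups were separate by CPM and overlapped by TPM, and the log2 fold change was -0.18 (standard error 0.12, edgeR adjusted p = 0.677).

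Relative to its size, the Grin3a length varied least of the tested members with a variable length. It was 7184, 7221 and 7235 bases in wild type, against 7110, 7180 and 7216 in knockout libraries 4 to 6. In vM21 the coding transcripts are 7431 and 7491 bases long and the processed transcripts 3799 and 3925 bases. Only if RSEM used these lengths do they bound the non-coding share. It was lowest in wild-type library 3, between 5.39 and 7.17%, and highest in knockout library 4, between 8.83 and 10.7%. Libraries 5 and 6 had 6.91 to 8.72% and 5.92 to 7.72%. The log2 difference in length was -0.012 with a standard error of 0.0091 (limma adjusted p = 1.00, exact permutation p = 0.3).

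Grin3b (chromosome 10, 79970715 to 79977190) had 4.56, 13.3 and 14.0 counts in wild-type libraries 1 to 3, against 6.11, 15.02 and 9.16 in the knockout libraries. Wild-type library 1 was lowest by counts and TPM, and the groups overlapped. The log2 fold change was -0.20 (standard error 0.57, edgeR adjusted p = 0.920), and it turned to 0.031 with the effective length as offset and to 0.12 on log2(TPM + 0.1). Its 3' part shares 1059 exon bases with Tmem259, a membrane protein gene on the opposite strand with 1398 to 2483 counts. The counts of this pair also added up to whole numbers in 6 of 6 libraries, from 1404 to 2498. The Grin3b counts were few beside those of Tmem259. How many of them came from divided reads cannot be read from these sums. The Grin3b length moved between 1590 and 2998 bases, across most of the span from its shortest to its longest transcript (1197 to 3283 bases). The difference of library 5 from library 6 was -616 bases.

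**Figure D4:**
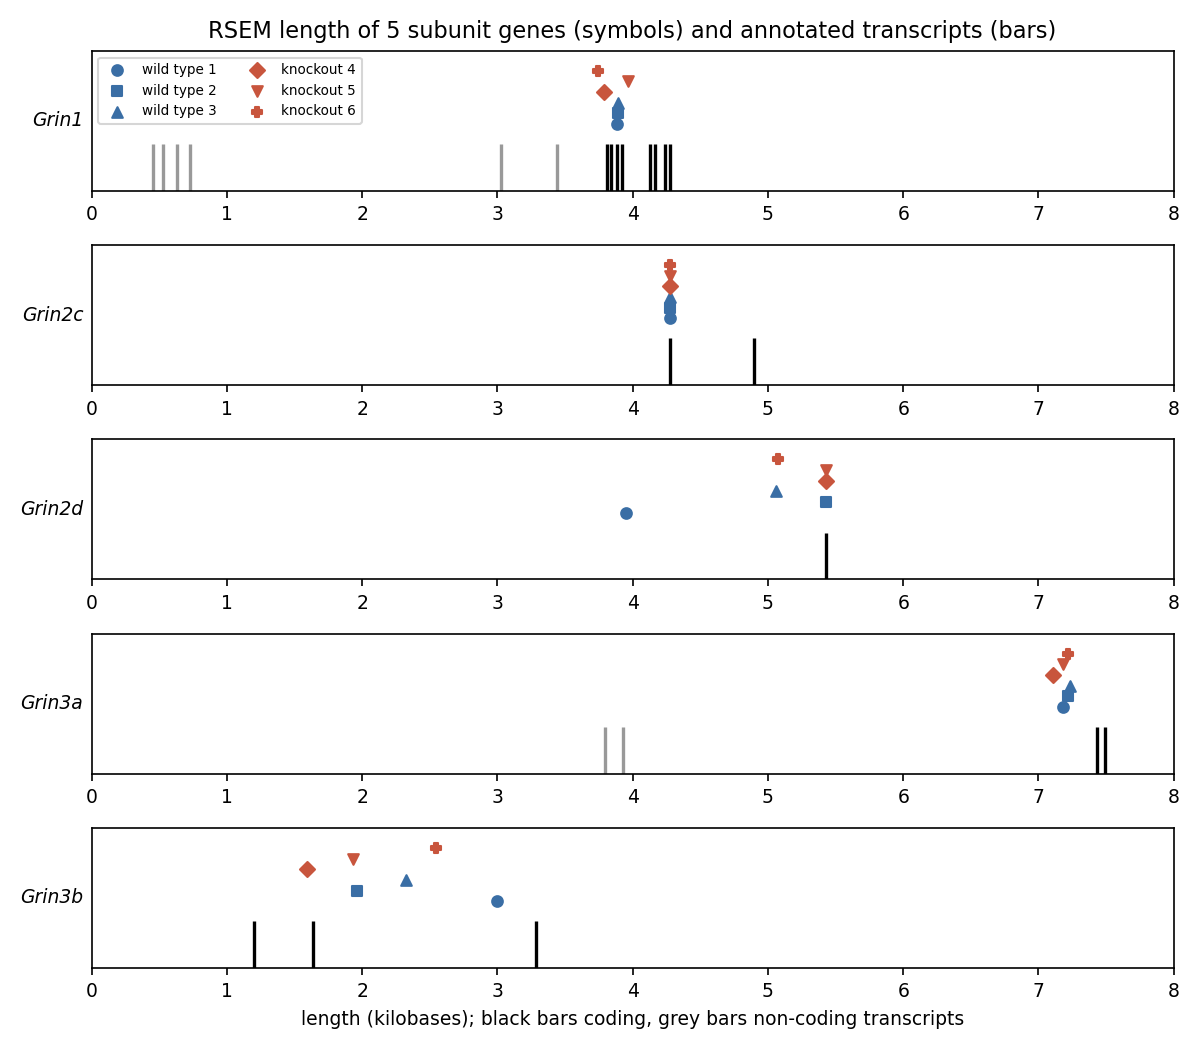
RSEM length in kilobases (x axis) of the 5 subunit genes that passed the filter, with 1 symbol per library (wild type blue, knockout red) above bars at the lengths of the transcripts in GENCODE vM21 (black coding, grey non-coding; 1 of 2 Grin2d transcripts has no bar). Grin2c sits at 4279 bases in every library, while Grin2d and Grin3b spread over 1482 and 1409 bases.

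Across the whole table no length change was called. Of 10465 genes with a length that varied, 0 passed limma at an adjusted p of 0.05 (0%), 511 had an unadjusted p under 0.05 (4.88%), and the groups did not overlap for 17.6%. Among the 4 members in this fit, Grin1, Grin2d, Grin3a and Grin3b, the groups were separate only for Grin1, and only after libraries 5 and 6 were averaged.

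The partners of the receptor were read from lists of scaffolds, signalling proteins, co-agonist supply, and trafficking and associated proteins. Over all genes tested the median log2 fold change was 0.00, and 0 genes of the 4 lists passed edgeR at an adjusted p of 0.05. An unadjusted p under 0.05 was reached by 1 scaffold gene, 3 signalling genes, 0 co-agonist genes and 1 trafficking gene, where 9.16% of all genes reached it. Of 14 scaffold genes, 10 were positive and 4 negative, with a median of 0.11. Of 17 signalling genes, 9 were positive and 8 negative, with a median of 0.02. Of 12 trafficking and partner genes, 7 were positive and 5 negative, with a median of 0.06.

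Of 10 co-agonist genes 7 were tested, and 6 were positive with a median of 0.31. Dao, which breaks down D-serine, and the transporters Slc7a10 and Slc6a5 were removed by the filter. Shmt1 and Shmt2, which interconvert serine and glycine, were at 0.54 and 0.31 on the log2 scale. Gldc, of the glycine cleavage system, was at 0.62, and Slc1a4, a serine transporter, at 0.40. The lowest edgeR adjusted p of this list was 0.567.

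Neto1, an auxiliary protein of kainate and NMDA receptors, was at 4.78, 5.09 and 5.96 TPM in wild type and 7.45, 9.60 and 10.4 TPM in knockout. All knockout libraries were above all wild-type ones, and the log2 fold change was 0.73 (standard error 0.16, edgeR adjusted p = 0.279). Rasgrf2, a Ras activator that calcium and calmodulin switch on, was at 21.2, 25.1 and 24.9 TPM in wild type and 33.2, 41.2 and 43.5 TPM in knockout. Its log2 fold change was 0.63 (standard error 0.15, edgeR adjusted p = 0.299). Dlg2, the scaffold PSD-93, was at 27.2, 26.2 and 27.7 TPM in wild type and 33.5, 38.7 and 38.3 TPM in knockout, also without overlap. Its log2 fold change was 0.43 (standard error 0.10, edgeR adjusted p = 0.305). By CPM the groups did not overlap for 27.4% of all genes. Neto1, Rasgrf2 and Dlg2 were named for their low p, so their separation is not a result about them. DESeq2 called 255 of the 16810 genes on these 5 samples. Neto1, Rasgrf2 and Dlg2 were among them, with DESeq2 adjusted p of 0.0266, 0.0181 and 0.0332. They were named for the lowest edgeR adjusted p of their lists on the same counts, so DESeq2 gives no separate support for them.

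Other partners lay closer to their error. Rasgrf1, a second Ras activator, was at 0.39 on the log2 scale, and Nos1, neuronal nitric oxide synthase, at 0.56. Among scaffolds Shank2 was at 0.47, Shank3 at 0.26 and Homer2 at -0.19. Ephb2, an ephrin receptor that binds GluN1, was at 0.54, the actin-binding Actn2 at 0.72 and the neurofilament gene Nefl at 0.35. Adjusted p in edgeR lay between 0.488 and 0.677 for these 8 genes. Actn2 is also a gene of the muscle Z-disc, and the skeletal muscle markers summed to 5.05 to 19.5 TPM in wild type and to 55.4, 5.10 and 6.36 TPM in knockout libraries 4 to 6. The summed markers of Schwann cells, satellite glia and endothelium, given above, also separated the groups, and the part of any of these marker groups in the differences was not tested.

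**Figure D5:**
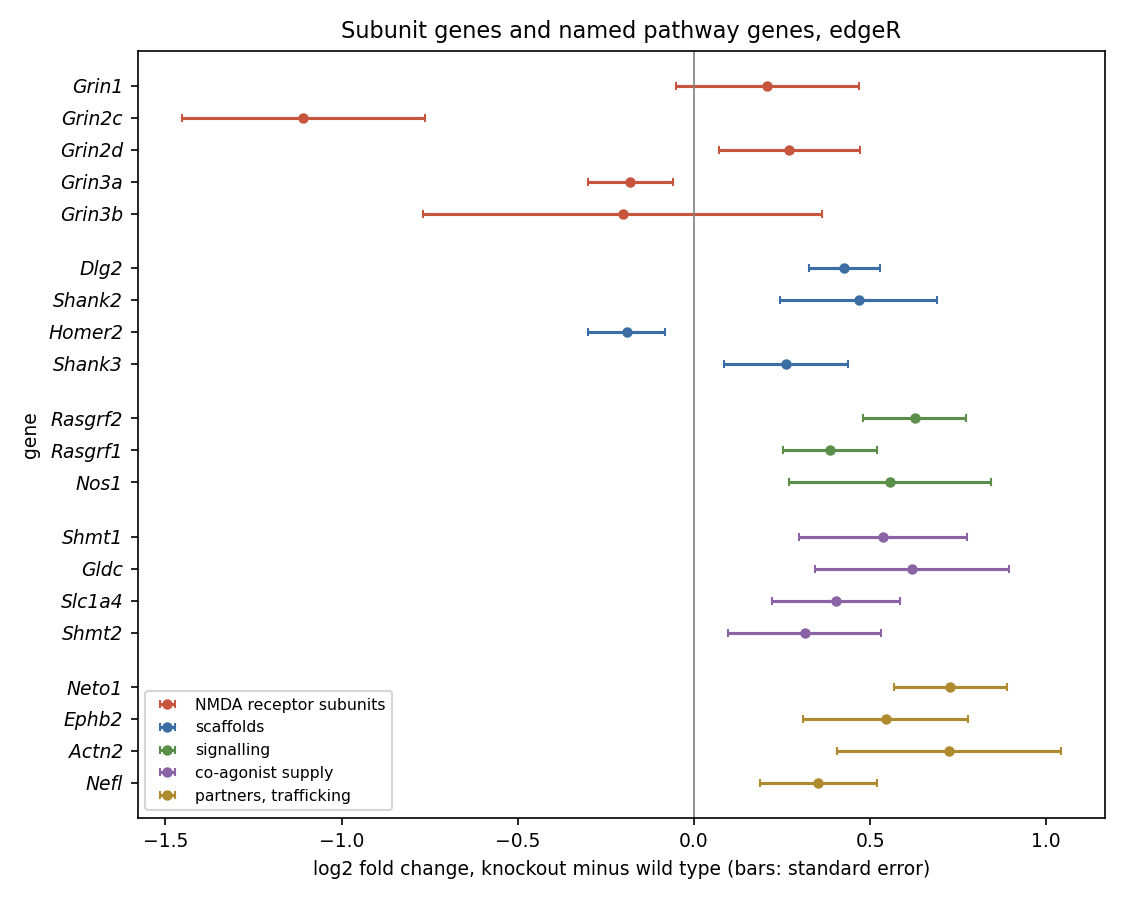
Log2 fold change, knockout minus wild type (x axis), of the 5 tested subunit genes and 15 named partner genes (y axis), with bars of 1 standard error and colours by list. Grin2c at -1.11 stands lowest, Grin1 at 0.21 lies within 1 standard error of 0, and none of the 20 genes passed edgeR at an adjusted p of 0.05.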

How the data were processed

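The submitters' processing notes name Trimmomatic 0.38, STAR 2.6.0a, RSEM 1.3.0 and GRCm38. No annotation release is stated there. In the table that the authors deposited, each library has expected counts (estimated counts per gene, not normalized), TPM, FPKM, length and effective length. The deposited FPKM values entered no result. Symbols, positions and transcript lengths came from GENCODE vM21 (GRCm38), which matched 35243 of 36793 identifiers. Of 22210 genes with 1 transcript in the table and found in both, 73.3% had the same length, so the authors' annotation was another release.

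Expected counts were rounded, filtered with filterByExpr, scaled by TMM and compared by quasi-likelihood in edgeR 4.0.16 (R 4.3.3), two-sided, with genotype as the only term and Benjamini-Hochberg adjustment over all genes. Standard errors come from the log2 fold change and its F statistic. Lengths were tested as log2 with limma 3.58.1, with the trend on mean log2 CPM. Libraries 5 and 6 were summed for counts and averaged for TPM and length. Only mouse numbers distinguish the samples in the labels, and p-values measure no more than their spread. Scripts were tested on simulated data. Sums of counts were called whole within 0.015.

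Genes named are the 7 members, genes overlapping them, the 4 of each partner list with the smallest p, and the 5 nearest to Grin1. Of all these, 2 genes are not reported here. Members and lists were chosen with earlier results of these data known. Alternatives were DESeq2 1.42.0, other scaling, no filter, TPM with pseudocounts of 0.1 and 1, an effective length offset, other treatment of libraries 5 and 6, and leaving out libraries.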

Additional observations from a re-analysis of the deposited data

How the results depend on the processing

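No paired analysis was possible because wild-type mice carry numbers 1 to 3 and knockout mice 4 to 6. Changed genes numbered 16, but 144 when libraries 5 and 6 entered as separate samples, 255 in DESeq2, 81 with no filter and 30 at an FDR of 0.10, where the looser threshold itself adds genes. For the others the cause was not tested. Leaving out libraries gave 7 to 16 genes, with 8 without wild type 2, 10 without wild type 3 and 7 without knockout 4. The remaining alternatives gave 12 to 18. Changed lengths numbered 0 under every alternative run.

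Grin1 did not pass under any alternative, and its log2 fold change ran from -0.073 without knockout libraries 5 and 6 to 0.47 without wild type 2. With samples left out, Grin3b was at -0.73 (no libraries 5 and 6) and -0.55 (no wild type 1), and turned to 0.10 (no wild type 3) and 0.074 (no knockout 4). It also turned to 0.031 with the effective length offset and to 0.12 and 0.0055 on log2(TPM + 0.1) and log2(TPM + 1). Without knockout libraries 5 and 6, the values were -0.037 for Kdelr1, -0.31 for Tmem259, -0.026 for Shank3, -0.065 for Nacc2, -0.060 for Gpr153, -0.079 for Fto and -0.045 for Cables2. Tmem259, at 0.01 over all 5 samples, was also at -0.074 without wild type 1, -0.057 without wild type 3 and 0.27 without knockout 4. The cause was not tested for these. Where a single knockout sample was left, its spread was taken to equal that of the wild type. Depth limits Grin2a, Grin2b, Grin2c and Grin3b, with 15, 9, 90.1 and 62.2 counts over all 6 libraries.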

Other observations

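The division of reads seen for Grin1 with Grin1os and for Grin3b with Tmem259 was counted over the whole table, a count chosen after these pairs were seen. Among gene pairs on opposite strands that share exon bases and both had counts that were not whole, 64.2 to 67.0% per library added up to a whole number, of 1254 to 1316 such pairs. Among neighbouring genes on opposite strands with no overlap this share was 5.51 to 8.35%, of 401 to 483 pairs. For pairs on the same strand that share exon bases it was 32.4 to 36.0%, of 220 to 253 pairs. For Grin2c, the knockout library 6 count of 9.07 and the 0.93 counts of Gm25837, a microRNA gene on the opposite strand, added up to 10 (1 of 1 library in which both were not whole).

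The spread of RSEM lengths between libraries 5 and 6 was also counted over all 10465 genes in the length comparison. Their median absolute difference in length was 1.95%, against 2.23 to 2.70% in the other 14 pairs of libraries. Lengths differed by more than 5% for 28.2% of genes between libraries 5 and 6, and for 30.9 to 34.6% in the other pairs. As for Grin1, libraries 5 and 6 held both extremes of the 6 lengths for 684 genes, 6.54%. Any pair of libraries can hold both extremes for some genes. The share was not counted for the other 14 pairs, so 6.54% does not set libraries 5 and 6 apart.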
